A study of Mus musculus with 6 samples.

Results

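Kitl, Kit, Nppc, Npr2, Gja1, Gja4 and Gjc1 are 7 genes grouped here under the coupling of granulosa cells to the oocyte they enclose and its meiotic arrest. They were taken by symbol from the 49315 genes of the count files, all 7 were found, and all 7 were among the 18250 genes kept by the filter on low counts. Kitl and Kit encode a growth factor and its receptor, Nppc and Npr2 a peptide and its receptor, and the 3 Gj genes encode connexins. The levels were compared between 3 libraries labelled wild type (WT) and 3 labelled knockout (KO), in which Jmjd3 was deleted in granulosa cells only. Jmjd3, also named Kdm6b, encodes a histone H3K27 demethylase. Values of the 3 libraries of a group are given in the order of replicates 1 to 3.

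Both groups consisted of freshly isolated granulosa cells from ovaries of female mice labelled C57BL/6J and 8 to 9 weeks of age. The driver of the cell-specific deletion, the deleted exons, the stage of the oestrous cycle, any hormone treatment and any pooling of animals are not stated in the labels. Whether the replicates are separate animals is not stated either, so every p-value refers to the spread between libraries, which may be technical. Count totals ran from 42379018 to 49901493 per library. Kdm6b RNA, counted over the whole gene, was not lower on average in KO (WT 68.4 ± 3.76 CPM, KO 81.9 ± 26.5 CPM, SD, n = 3). The libraries gave 72.8, 66.3 and 66.2 CPM (WT) and 64.7, 68.6 and 112 CPM (KO) (adjusted p = 0.755, edgeR). KO replicate 1 lay below every WT library, and only KO replicate 3 lay above them all. The groups overlapped, so the genotype of each group rests on its label. All 13 granulosa cell markers examined passed the filter, with summed levels of 13890 to 16270 CPM in WT and 16130 to 22330 CPM in KO, most of it Inha and Inhbb. Of the 13, 9 had a positive and 4 a negative fold change, and edgeR called 1, Amhr2, the receptor gene of anti-Müllerian hormone, lower in KO. Amhr2 averaged 267 ± 26.6 CPM (WT) and 133 ± 7.02 CPM (KO) (log2 fold change -1.01 ± 0.09 SE, adjusted p = 0.00212, edgeR), and was also called by DESeq2, by limma-voom and by edgeR without KO replicate 3. All 19 oocyte markers passed as well, with sums of 1157 to 1473 CPM in WT and 970 to 1080 CPM in KO, so the preparations held oocyte RNA. KO replicate 3 stood apart: its counts differed from those of KO replicates 1 and 2 by a chi-square per degree of freedom of 86.2 and 53.5, against 19 between those 2 and 15.2 to 23.4 among the WT libraries. In that library 12 genes of the ovulatory response summed to 2420 CPM, against 612 to 934 CPM in the other 5.

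In the follicle the oocyte depends on signals from the surrounding cells. KIT ligand, made by granulosa cells, binds the receptor tyrosine kinase KIT on the oocyte and on theca cells and supports oocyte growth. C-type natriuretic peptide, the product of Nppc in mural granulosa cells, binds NPR2, a guanylyl cyclase, and the cyclic GMP it makes passes through gap junctions into the oocyte, where it restrains phosphodiesterase 3A and so keeps cyclic AMP high and meiosis arrested. Connexin 43 (Gja1) forms most of the channels among granulosa cells, connexin 37 (Gja4) those at the oocyte surface, and connexin 45 (Gjc1) is a further granulosa connexin. Luteinizing hormone ends the arrest by lowering cyclic GMP and closing the channels.

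The stretches of 250 bases before the RefSeq start sites of Kitl, Nppc and Gja1, whose levels were all highest in KO replicate 3, and of Kit, the member with the smallest p, show what sequence lies at these genes' starts (RefSeq, GRCm38.p6, 5′ to 3′ on the gene's strand). Capitals mark the motifs found by a search on both strands for CRE (TGACGTCA), AP-1 (TGANTCA), the GC box of SP1 (GGGCGG), NR5A (AAGGTCA), FOX (GTAAACA) and the TATA box (TATAAA). The windows are chr10:100015571-100015820, plus strand for Kitl, chr1:86670574-86670823, minus strand for Nppc, chr10:56377050-56377299, plus strand for Gja1 and chr5:75574737-75574986, plus strand for Kit, the first of 2 entries for that gene. In the count files Kitl starts at 100015630 and Kit at 75574916, so part of each of these windows lies within the gene as counted.
Kitl: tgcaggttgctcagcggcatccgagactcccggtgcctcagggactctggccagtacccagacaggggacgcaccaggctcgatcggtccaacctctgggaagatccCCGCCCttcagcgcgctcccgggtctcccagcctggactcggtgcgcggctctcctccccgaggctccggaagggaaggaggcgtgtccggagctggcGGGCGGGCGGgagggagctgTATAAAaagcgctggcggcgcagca
Nppc: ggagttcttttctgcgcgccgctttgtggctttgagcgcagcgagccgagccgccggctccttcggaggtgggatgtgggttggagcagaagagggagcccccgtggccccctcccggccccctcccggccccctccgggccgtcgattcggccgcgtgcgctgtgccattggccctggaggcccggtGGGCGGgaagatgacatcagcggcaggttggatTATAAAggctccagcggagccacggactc
Gja1: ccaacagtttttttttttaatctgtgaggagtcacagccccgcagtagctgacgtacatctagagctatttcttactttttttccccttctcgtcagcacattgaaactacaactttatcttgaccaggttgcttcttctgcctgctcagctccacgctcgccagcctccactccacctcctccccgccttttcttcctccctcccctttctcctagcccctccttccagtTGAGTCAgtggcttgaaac
Kit: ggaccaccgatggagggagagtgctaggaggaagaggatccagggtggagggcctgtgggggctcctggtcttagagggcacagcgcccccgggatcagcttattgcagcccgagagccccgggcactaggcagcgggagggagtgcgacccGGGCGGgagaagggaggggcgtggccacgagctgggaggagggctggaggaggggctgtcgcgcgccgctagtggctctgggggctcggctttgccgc
Kitl and Nppc both held TATAAA close to the start, with its first base 25 and 29 bases before it, a motif found in 12.4% of 32851 promoter windows of this length. Kitl held 3 GC boxes, of which 2 overlapped, and Nppc and Kit held 1 each, a motif found in 32.7% of all windows. Gja1 held neither and had 1 AP-1 match (6.75% of all windows). Of the other members, Gja4 had 1 GC box, and Npr2, whose level was also highest in KO replicate 3, none of the 6 motifs. Gjc1 had no entry. GC content was 69.2% for Kitl and for Nppc, 70.8% for Kit and 50.0% for Gja1, against a median of 52.4% over all windows.

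The 7 genes spanned a wide range of levels, which are given here per length, as CPM per kilobase of exon (RPKM). Gja1 was at 1366 ± 113 RPKM in WT (SD, n = 3), the 14th highest of the 18250 genes kept when ranked by the mean over all libraries. Nppc followed with 49.1 ± 6.38 RPKM and Npr2 with 45.3 ± 2.23 RPKM, and these neighbours overlapped in WT. Kitl stood at 21.9 ± 2.23 RPKM, Gja4 at 15.1 ± 1.87 RPKM, Kit at 4.42 ± 0.27 RPKM and Gjc1 at 0.84 ± 0.08 RPKM, with no overlap between any of these neighbours in WT. In KO the order by mean was the same, but Npr2 overlapped both Nppc and Kitl there.

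None of the 7 genes passed an adjusted p under 0.05 over all genes in edgeR's quasi-likelihood test, in which 40 of 18250 genes (0.219%) were called. At an unadjusted p under 0.05 stood 2 of the 7, Kit and Gjc1, where 9.16% of all tested genes did. For the same 2 genes each KO library lay above each WT library, while 7.68% of all tested genes had KO above WT without overlap. Limma-voom called 0 of the 7, and DESeq2 called 1, Kit (1.16% of the genes with an adjusted p in DESeq2 were called). The median log2 fold change of the 7 genes, KO minus WT, was 0.35, with 5 positive and 2 negative. Over all genes tested the median was 0.00385, and 50.9% had a positive fold change. The median of the 7 is the value of Nppc. Without KO replicate 3 Nppc stood at 0.02, and the middle value of the 7 was then that of Gja1, at 0.11.

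**Figure D1:**
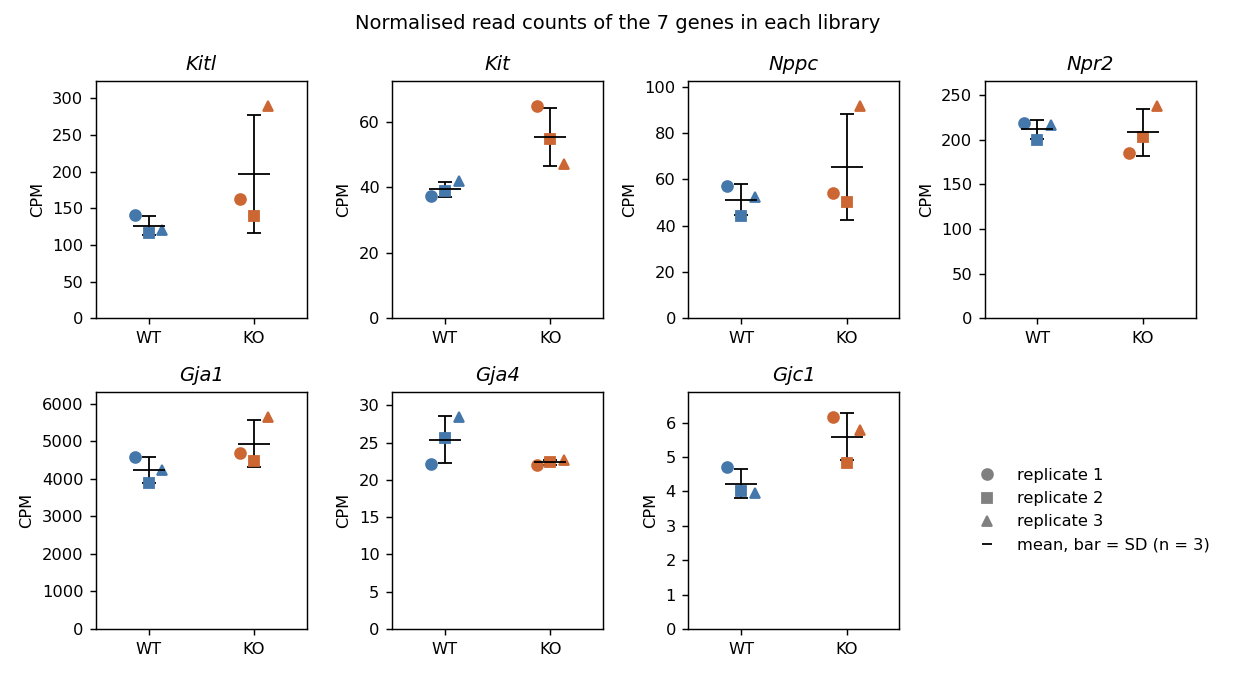
CPM of each gene (y axis, linear from 0, a scale of its own in each panel) in the WT and KO libraries; circles, squares and triangles are replicates 1 to 3, and the bars give the mean with SD. Kit and Gjc1 separate the groups, while Kitl and Nppc are high in KO replicate 3 (289 and 91.4 CPM).

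Kit, the receptor tyrosine kinase gene (chromosome 5, 75574916 to 75656722, GRCm38, plus strand), stood higher in each KO library than in any WT library. The WT libraries gave 37.3, 38.8 and 41.9 CPM and the KO libraries 64.7, 54.6 and 47.0 CPM. The groups did not overlap, and KO replicate 3 was the KO library nearest to WT. The log2 fold change of Kit was 0.49 ± 0.11 (SE; 95% interval 0.24 to 0.75; 1.41-fold), with a p of 0.00172 and an adjusted p of 0.214 in edgeR, and Kit was at place 145 of all genes by p. Without KO replicate 3 it rose by 0.60 (adjusted p = 0.000855, edgeR), in a fit that called 2.26% of genes. Without a filter on low counts Kit was called as well (adjusted p = 0.00827, edgeR; 0.617% of genes called). In the 5 fits without another library the adjusted p lay between 0.347 and 0.63.

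Because Kit is made by oocytes, theca cells and mast cells, the levels of their markers are given beside it. All 19 oocyte markers had fold changes below 0 (median -0.31), opposite in sign to Kit, and edgeR called none (14 at an unadjusted p under 0.05). DESeq2 called 1 lower, Gdf9, and limma-voom 0. Kit stood at -0.37, -0.32 and -0.44 log2 units relative to the median oocyte marker in WT replicates 1 to 3 and at 0.59, 0.41 and 0.08 in KO replicates 1 to 3. The group means differed by 0.73 without overlap (exact two-sided permutation p = 0.1, the smallest that 3 against 3 allows, and 0.333 adjusted over 5 such values). This follows from Kit being higher and the oocyte markers lower in KO, so the ratio is no separate test of Kit. The 9 theca and interstitial markers summed to 852 to 1058 CPM in WT and 1255 to 1794 CPM in KO, most of it Aldh1a1. Fold changes were positive for 3 of the 9 and negative for 6 (median -0.08). Of these, 3 were above and 1 was below WT in KO without overlap, while edgeR and limma-voom called 0 (3 at an unadjusted p under 0.05 in edgeR) and DESeq2 called 1, Aldh1a1. The 3 above were Aldh1a1, Cyp17a1 and Insl3, which encode a retinaldehyde dehydrogenase, the androgen-forming enzyme and a theca cell hormone. The 1 below was Gli1, with means of 2.29 (WT) and 1.88 CPM (KO). Over all tested genes, 7.68% had KO above WT without overlap. Among the 6 negative fold changes the largest in size was that of Cyp11b1 (-0.84), with means of 1.35 (WT) and 0.75 CPM (KO). Cyp17a1 gave 82.0, 135 and 69.6 CPM (WT) and 316, 174 and 203 CPM (KO), and Aldh1a1 averaged 726 ± 75.3 and 1172 ± 200 CPM (SD, n = 3). The 11 mast cell markers, of which 5 passed the filter, summed to 21.2 to 24.3 CPM in WT and 15.5 to 27.5 CPM in KO. Most of that sum was Hdc, the histidine decarboxylase gene, and the mast cell protease gene Cma1 ranged from 0.36 to 0.67 CPM in WT, against 2.03, 1.74 and 0.27 CPM in KO, with Mcpt1 at 0 in every library. In the fit without KO replicate 3, which called Kit, edgeR also called Aldh1a1 and 3 mast cell genes, Cma1, Cpa3 and Tpsb2, higher, but with all 6 libraries it called 0 of the mast cell genes (1 at an unadjusted p under 0.05; DESeq2 1, limma-voom 0). Levels for genes of other cells are given as well. The 7 red blood cell genes summed to 383 to 798 CPM in WT and to 2260, 1339 and 830 CPM in KO replicates 1 to 3, the order of Kit in the same libraries. All 7 were above WT in KO without overlap, and edgeR, DESeq2 and limma-voom called 1, the anion exchanger gene Slc4a1 (0.16 to 0.34 CPM in WT, 0.83 to 1.11 CPM in KO; adjusted p = 0.0406, edgeR). The 10 immune cell markers gave sums of 207 to 267 CPM (WT) and of 322, 246 and 173 CPM (KO), and the 11 endothelium markers 193 to 230 CPM (WT) and 339, 243 and 167 CPM (KO), again highest in KO replicate 1 and lowest in KO replicate 3. In KO replicate 3 both of these sums lay below every WT library, whereas Kit lay above each. The tools with all 6 libraries called 0 of these 21 (0 at an unadjusted p under 0.05 in edgeR), and edgeR without KO replicate 3 called Csf1r and Cldn5 higher. The part of these cells, theca and mast cells included, in the Kit level was not tested, and in bulk RNA fewer cells of a type and less RNA per cell cannot be told apart.

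Kitl, the gene of the KIT ligand (chromosome 10, 100015630 to 100100413, plus strand), was highest in 1 KO library. The WT libraries gave 141, 117 and 121 CPM and the KO libraries 163, 140 and 289 CPM. KO replicate 2 lay just below WT replicate 1, so the groups overlapped. Its log2 fold change of 0.64 ± 0.30 (SE; 95% interval -0.10 to 1.39; adjusted p = 0.594, edgeR) became 0.26 without KO replicate 3 (adjusted p = 0.175, edgeR). The deposited counts cover the whole gene and do not separate the membrane-bound from the soluble form of the ligand. The log2 ratio of Kitl to Kit CPM was 1.92, 1.59 and 1.53 in WT and 1.33, 1.35 and 2.62 in KO, so KO replicates 1 and 2 had the lowest ratios and KO replicate 3 the highest. The group means differed by 0.09 (exact permutation p = 1), and by -0.34 without KO replicate 3.

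Of 27 other genes of KIT signalling tested, 21 had a positive and 6 a negative fold change, and none was called by edgeR, limma-voom or DESeq2. At an unadjusted p under 0.05 stood 1 of them, the adaptor gene Gab1, with a log2 fold change of -0.16 ± 0.07 (SE; adjusted p = 0.505, edgeR). Pik3r1, a regulatory subunit of the phosphoinositide kinase activated by KIT, averaged 237 ± 34.1 CPM (WT) and 198 ± 30.3 CPM (KO) (adjusted p = 0.599, edgeR). The median over these 27 genes was 0.04.

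Nppc, the precursor of C-type natriuretic peptide (chromosome 1, 86666291 to 86670571, minus strand), also stood out in KO replicate 3. The WT libraries gave 57.3, 44.1 and 52.3 CPM and the KO libraries 54.2, 50.0 and 91.4 CPM. KO replicates 1 and 2 lay within the WT range. Nppc had a log2 fold change of 0.35 ± 0.26 (SE; 95% interval -0.29 to 0.99; adjusted p = 0.719, edgeR), which was 0.02 without KO replicate 3 (adjusted p = 0.946, edgeR).

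Npr2, the receptor (chromosome 4, 43631935 to 43651244, plus strand), was nearly level between the groups. Its values were 218, 200 and 217 CPM (WT) and 185, 203 and 237 CPM (KO), with the lowest and the highest library both in KO. Between the groups the log2 fold change was -0.02 ± 0.10 (SE; 95% interval -0.24 to 0.20; adjusted p = 0.96, edgeR). The antisense gene Gm12473 overlaps Npr2, with 6.48 to 11.5 CPM, and since the strand setting is not given, reads of the 2 genes cannot be told apart. The log2 ratio of Nppc to Npr2 was -1.93, -2.18 and -2.05 in WT and -1.77, -2.02 and -1.37 in KO, a difference of 0.33 (exact permutation p = 0.2; 0.333 adjusted over the 5 values). Only KO replicates 1 and 3 lay above every WT library.

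Of 21 other genes of natriuretic peptide and cyclic GMP signalling tested, 11 had a positive and 10 a negative fold change (median 0.00), and edgeR, limma-voom and DESeq2 called none. At an unadjusted p under 0.05 stood 1, Gucy1a1, a subunit of soluble guanylyl cyclase. Its values were 46.5, 45.4 and 45.1 CPM (WT) and 41.0, 39.4 and 36.0 CPM (KO), without overlap (log2 fold change -0.24 ± 0.07 SE, adjusted p = 0.365, edgeR). Prkg2, a cyclic GMP-dependent protein kinase gene, stood at 5.17 ± 1.70 and 3.42 ± 0.87 CPM, and Mrvi1, which encodes a substrate of such kinases, at 9.13 ± 0.77 and 7.18 ± 1.53 CPM. Among the related peptides and receptors, named here after their values were seen, Nppa and Nppb were filtered out, with Nppb at 0 in every library. The receptor gene Npr1 averaged 117 CPM (WT) and 130 CPM (KO). The clearance receptor gene Npr3 stood at 12.0 CPM in KO replicate 3 and at 4.10 to 5.21 CPM in the other libraries.

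Gja1, the gene of connexin 43 (chromosome 10, 56377300 to 56390419, plus strand), was per length (RPKM) the most abundant of the 7 in every library. The WT libraries gave 4586, 3885 and 4249 CPM and the KO libraries 4680, 4471 and 5648 CPM. KO replicate 3 was the highest, and KO replicate 2 lay below WT replicate 1. For Gja1 the log2 fold change was 0.22 ± 0.13 (SE; 95% interval -0.07 to 0.51; adjusted p = 0.638, edgeR) and 0.11 without KO replicate 3 (adjusted p = 0.749, edgeR). Per length, Gja1 made up 98.4% to 99.0% of the summed RPKM of 20 connexin genes in the 6 libraries. No connexin outside the 7 genes exceeded 2.10 RPKM in any library.

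Gja4, the gene of the oocyte connexin 37 (chromosome 4, 127311421 to 127314039, minus strand), was nearly the same in the 3 KO libraries. The WT libraries gave 22.1, 25.7 and 28.4 CPM and the KO libraries 22.1, 22.3 and 22.7 CPM. The KO libraries lay at or near WT replicate 1, below the other 2. This gave a log2 fold change of -0.18 ± 0.10 (SE; 95% interval -0.40 to 0.03; adjusted p = 0.604, edgeR), between -0.27 and -0.10 when 1 library was left out. The oocyte markers had a median of -0.31. Relative to the median oocyte marker of the same library, Gja4 stood from -1.12 to -0.91 log2 units in WT and from -0.97 to -0.88 in KO, with overlap (difference 0.07, exact permutation p = 0.4; 0.5 adjusted over the 5 values). Endothelial cells also make connexin 37, and the 11 endothelium markers summed to 193 to 230 CPM in WT and to 339, 243 and 167 CPM in KO replicates 1 to 3; their part in the Gja4 level was not tested.

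The log2 ratio of Gja4 to Gja1 CPM was -7.69, -7.24 and -7.22 in WT and -7.73, -7.64 and -7.96 in KO. WT replicate 1 lay within the KO range, and the means differed by -0.39 (exact permutation p = 0.2; 0.333 adjusted over the 5 values). As a share of the summed RPKM of the 3 connexins, Gja4 made up 1.10% ± 0.19 in WT and 0.84% ± 0.09 in KO (SD, n = 3).

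**Figure D2:**
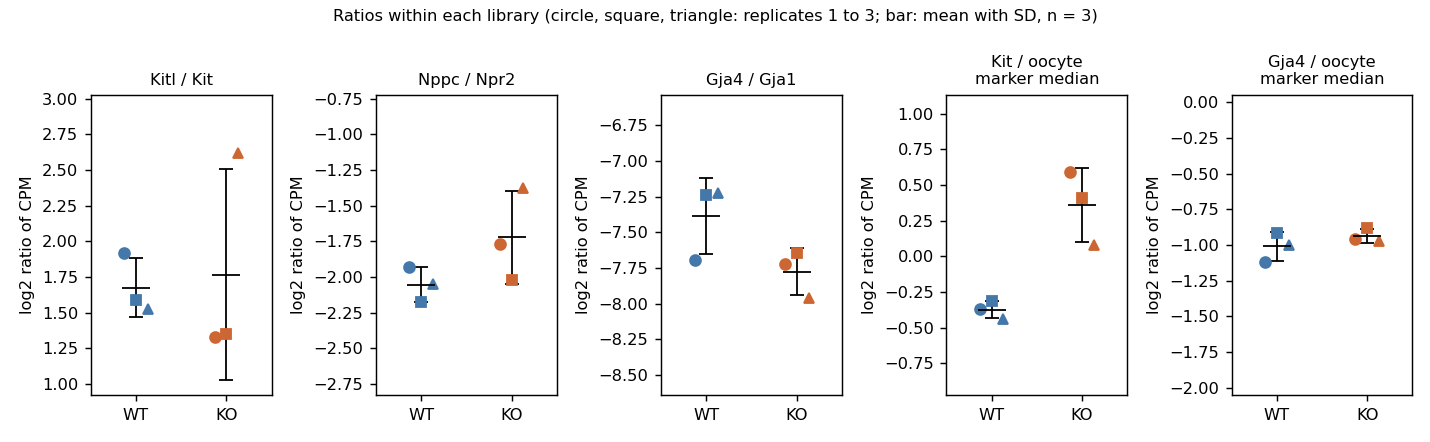
The 5 log2 ratios within each library (y axes of equal span, not starting at 0) for WT and KO; points are replicates 1 to 3, bars the mean with SD. Only the level of Kit relative to the oocyte markers separates the groups, from -0.44 to -0.32 in WT and from 0.08 to 0.59 in KO. The CPM of Kit alone also separate them.

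Gjc1, the gene of connexin 45 (chromosome 11, 102799579 to 102819700, minus strand), was per length (RPKM) the least abundant of the 7 in every library, and its KO libraries lay above its WT libraries. The WT libraries gave 4.71, 4.01 and 3.95 CPM and the KO libraries 6.16, 4.83 and 5.79 CPM, from 191 to 289 counts per library. The groups did not overlap, though KO replicate 2 lay only just above WT replicate 1. Gjc1 had a log2 fold change of 0.41 ± 0.15 (SE; 95% interval 0.07 to 0.74), with a p of 0.023 and an adjusted p of 0.448 in edgeR. When 1 library was left out it lay between 0.33 and 0.50, with adjusted p from 0.268 to 0.758 in edgeR. Smooth muscle cells also make connexin 45, and the 9 smooth muscle and pericyte markers summed to 256 to 270 CPM in WT and to 346, 274 and 225 CPM in KO replicates 1 to 3. Both the sum and Gjc1 were highest in KO replicate 1, and in KO replicate 3 the sum was below WT and Gjc1 above it. The part of these cells in the Gjc1 level was not tested.

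Of 13 other members of the gap junction and pannexin family tested, 8 had a positive and 5 a negative fold change, and edgeR, limma-voom and DESeq2 called none. At an unadjusted p under 0.05 stood 1, Gjb2 (connexin 26), with means of 0.43 ± 0.14 (WT) and 0.73 ± 0.17 CPM (KO). Gja5, an endothelial connexin gene, averaged 0.41 ± 0.15 CPM (WT) and 0.67 ± 0.25 CPM (KO). Of the 20 connexin genes 7 were too low to test.

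Of 14 genes of junction partners and of the transzonal projections, the thin granulosa cell extensions that reach the oocyte, 10 had a positive and 4 a negative fold change, and edgeR and limma-voom called none, while DESeq2 called 1, Nectin2. At an unadjusted p under 0.05 in edgeR stood 2. The adhesion gene Nectin2 gave 116, 138 and 135 CPM (WT) and 179, 153 and 176 CPM (KO), without overlap (log2 fold change 0.39 ± 0.09 SE, adjusted p = 0.233, edgeR). The E-cadherin gene Cdh1 averaged 35.0 ± 5.22 CPM (WT) and 28.9 ± 4.49 CPM (KO).

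Of cyclic AMP control and meiotic arrest, 21 genes were tested, with 7 positive and 14 negative fold changes and a median of -0.09, and edgeR, limma-voom and DESeq2 called none. The one at an unadjusted p under 0.05 was Mos, the oocyte kinase of the later meiotic arrest, with means of 20.0 ± 2.48 (WT) and 16.3 ± 1.86 CPM (KO) (-0.30 ± 0.12 SE, adjusted p = 0.483, edgeR). Pde3a, the phosphodiesterase that cyclic GMP restrains, stood at 14.7 ± 1.89 and 12.8 ± 0.51 CPM, and Wee2, the oocyte kinase that inhibits CDK1, at 21.4 ± 2.83 and 18.5 ± 2.17 CPM. Their log2 fold changes of -0.20 and -0.21 were close to that of Gja4 and smaller in size than the median of the oocyte markers. The list is not specific to the oocyte. Prkar2b, named here after its values were seen, alone stood at 1539 to 2769 CPM, above the summed oocyte markers in each library. Which cells the counts of this list came from was not tested.

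**Figure D3:**
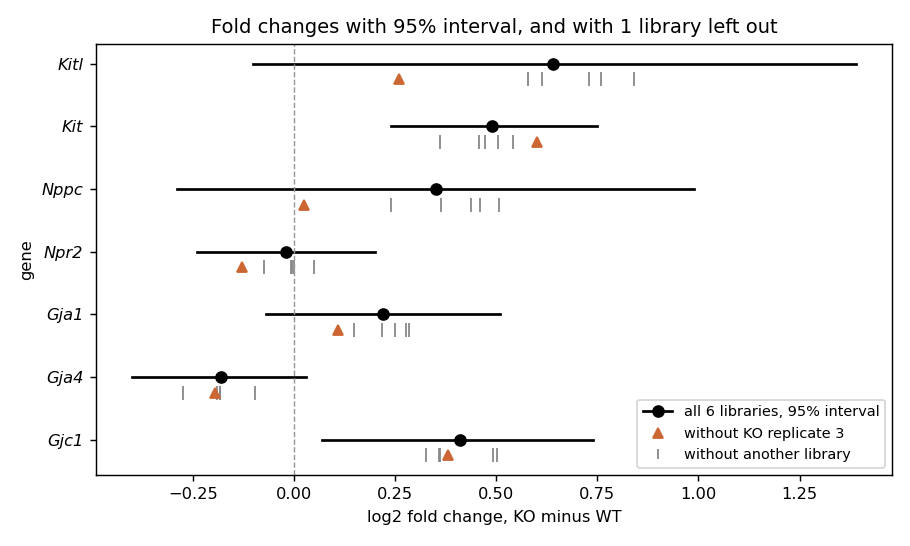
Log2 fold changes, KO minus WT (x axis), of the 7 genes (y axis): black points with 95% intervals from all 6 libraries, grey ticks with 1 library left out, and triangles without KO replicate 3. Without that library Kitl moves from 0.64 to 0.26 and Nppc from 0.35 to 0.02, while Kit moves from 0.49 to 0.60.

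Kitl, Nppc and Gja1 all had their highest level in KO replicate 3. In that library they stood 1.20, 0.84 and 0.42 log2 units above the WT mean, and their lowest level was in WT replicate 2. Over the other 5 libraries Kitl and Gja1 were highest in KO replicate 1 and Nppc in WT replicate 1. Npr2 was also highest in KO replicate 3, at 0.17 above the WT mean, so 4 of the 7 genes had their maximum in that library. The share of all tested genes with their maximum there was not determined. Kit was ordered otherwise, with 0.72, 0.47 and 0.26 in KO replicates 1 to 3, and Gja4 stood between -0.20 and -0.16 in the 3. The ovulatory genes Areg and Ereg, ligands of the EGF receptor, reached 241 and 261 CPM in KO replicate 3 and at most 0.98 and 1.31 CPM elsewhere. Of the 12 ovulatory genes all had a positive fold change, and edgeR, limma-voom and DESeq2 called 0. That direction rests on KO replicate 3: the median of the 12 stood 3.68 log2 units above the WT mean there, but at 0.20 and -0.12 in KO replicates 1 and 2. Rgs2, a regulator of G protein signalling, gave 530, 536 and 503 CPM (WT) and 397, 421 and 1183 CPM (KO), and edgeR without KO replicate 3 called it lower. At an unadjusted p under 0.05 stood 1, Egfr, the receptor of these ligands, with means of 57.9 ± 1.63 (WT) and 68.2 ± 9.20 CPM (KO). Marker medians of cell types also differed in KO replicate 3. The granulosa cell markers stood 0.39 log2 units above the WT mean there, and the red blood cell genes 0.48. The stromal fibroblast, surface and oviduct epithelium, smooth muscle and immune cell markers stood at -0.75, -0.78, -0.42 and -0.36. The part of the ovulatory response, or of the mix of cells, in the Kitl, Nppc and Gja1 levels was not tested.

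**Figure D4:**
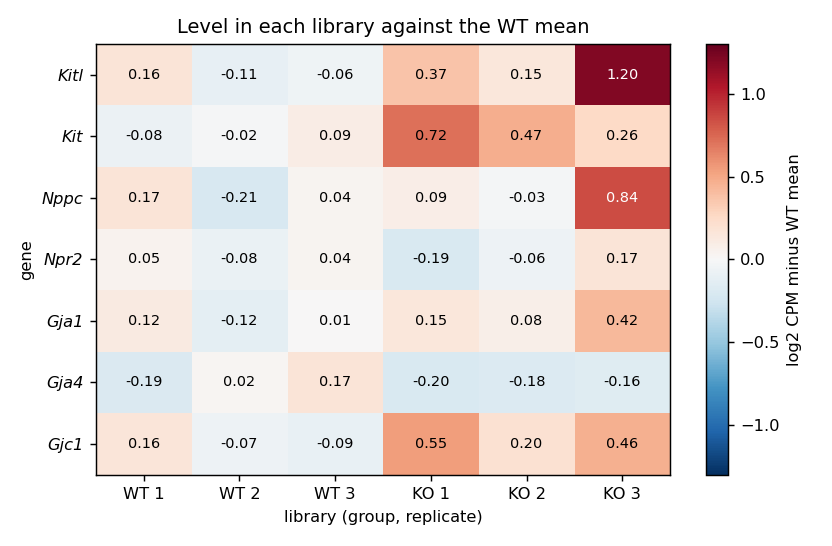
Level of each gene (rows) in each library (columns) as log2 CPM minus the mean of the 3 WT libraries, with the value in each cell and red for higher. KO replicate 3 holds the highest values of Kitl, Nppc, Npr2 and Gja1, and KO replicate 1 those of Kit and Gjc1.

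The genes whose log2 CPM most resembled each member over the 6 libraries, by Pearson correlation among 2304 genes with at least 5 CPM and a range of at least 0.5, are given as a description only. Kit was most like Stc1, the stanniocalcin gene, and Prlr, the prolactin receptor gene (0.99 each). Stc1 gave 15.6, 17.9 and 19.8 CPM (WT) and 48.2, 31.7 and 26.5 CPM (KO). Kitl was most like Azin2 (0.996) and St3gal5 (0.99), and Nppc most like Srcin1 and Slc25a36 (0.99 each). Gja1 was most like Rbm4b (0.99) and Mfap3l (0.98), and Npr2 most like Ddias and Atad2b (0.99 each). Gja4 was most like Adam23 (0.98) and Rfpl4 (0.97), a gene of the oocyte, at 37.7, 46.6 and 52.2 CPM (WT) and 36.8, 34.8 and 39.2 CPM (KO). Gjc1 was most like Ankrd9 and B9d1 (0.98 each).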

How the data were processed

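Messenger RNA was sequenced in 3 WT and 3 KO libraries. The submitters' processing notes name STAR 2.5.2b, Trimmomatic 0.36, Subread 1.5.2 (featureCounts) and the build GRCm38. The authors deposited raw counts per gene as whole numbers. Annotation release, strand setting and handling of reads with several matches: not given in the sources used here. Of 49315 gene identifiers 49056 matched GENCODE M21, from which symbols were taken, and coordinates are those of the count files.

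The counts were filtered by filterByExpr, scaled by TMM and compared by edgeR 4.0.16 (R 4.3.3) with the robust quasi-likelihood test on genotype alone, with p-values adjusted by Benjamini-Hochberg over the 18250 genes kept. CPM use the TMM-adjusted library size, 42.5 to 51.4 counts per CPM, and RPKM the exon length in the count files. Log2 CPM used a prior count of 2. Ratios within a library were compared by the exact permutation test. The steps were tested on simulated counts. No 2 libraries of a group agreed within sampling noise.

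Named beside the 7 genes are the 3 genes with the smallest p of each pathway list and the 2 most similar genes per member (3 genes that this rule names are not reported here); of cell type lists, sums and defining markers. The members and lists were chosen with earlier results of these data known. Alternatives were RLE and upper-quartile scaling, DESeq2 1.42.0, limma-voom 3.58.1 with quality weights, no filter, a mean of at least 1 CPM, a replicate block, a prior count of 0.5 and leaving out each library. Protein sequences were not used here.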

Additional observations from a re-analysis of the deposited data

How the results depend on the processing

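The count of 40 called genes became 199 without a filter, 21 at a mean of at least 1 CPM, 221 in DESeq2 and 72 in limma-voom, and lay between 8 (without WT replicate 2) and 421 (without KO replicate 3) when 1 library was left out. Of the 7 genes, 1, Kit, was called without a filter (log2 fold change 0.48, adjusted p = 0.00827), in DESeq2 (0.49, adjusted p = 0.0224) and without KO replicate 3 (0.60, adjusted p = 0.000855, edgeR), and 0 in edgeR under the other alternatives. Leaving out 1 library moved the count of called members between 0 and 1 and the Kit value between 0.36 and 0.60. Npr2 changed sign without KO replicate 1 (0.0491), with a range of -0.13 to 0.05, as did the log2 ratio of Kitl to Kit without KO replicate 3 (-0.34; range -0.34 to 0.31). The cause of these changes was not tested. The other 6 members and the other 4 ratios kept their sign in every alternative run. With the replicate number as a block, edgeR called 15 genes and 0 of the 7, and Kit stood at 0.48 (adjusted p = 0.42). No pairing by number was seen, since same-numbered libraries had deviations that correlated by -0.02, 0.07 and -0.03. A check on so few libraries cannot exclude a pairing. With 3 libraries a group the exact tests of the ratios cannot fall below 0.1. Gjc1 rests on 191 to 289 counts per library, the fewest of the 7 genes.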
